A study of Homo sapiens with 2 samples.

Results

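The genes of chromosome 1 were followed in order of position in 2 RNA-seq libraries, 1 of wild-type 786-O cells and 1 of a SETD2 knockout of these cells. The members are the 1381 chromosome 1 rows of the expression tables that held at least 100 reads over both libraries, of 2346 chromosome 1 rows and of 13676 rows with that many reads on all chromosomes. They were split by start position (hg19) into 600 genes before 84.9 Mb, 650 genes in a window from 84.9 to 221.1 Mb, and 131 genes after it. The window was chosen on the ratios of these same 2 libraries, so its lower level is described here and not tested. 786-O is an established line of human clear cell renal carcinoma that lacks functional VHL. A zinc finger nuclease, an engineered enzyme that breaks DNA at its target sequence, served to make the knockout, and both lines were grown in RPMI1640 medium with serum. The labels do not say whether the knockout line is 1 clone.

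Chromosome 1 is the longest human chromosome, and it carries clusters of related genes side by side, among them the guanylate-binding proteins, the mu-class glutathione transferases and the S100 calcium-binding proteins. A broad stretch around its centromere is heterochromatin with few genes. SETD2 trimethylates lysine 36 of histone H3 along the bodies of transcribed genes, wherever on the chromosomes they lie.

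Every deposited count was even in both tables, so a fragment was taken to have entered as 2 reads. Values below are counts divided by 2, called fragments. The wild-type library held 62304084 fragments and the knockout library 50670012. A log2 ratio is that of knockout over wild type after TMM scaling of the libraries (a trimmed mean of their log ratios), and intervals are exact 95% intervals of the ratio that cover counting error alone. With 1 library per line there was no replicate check, no p-value was computed, and each difference compares these libraries rather than the conditions. In bulk RNA, fewer cells that express a gene and less RNA per cell cannot be told apart. SETD2 (chromosome 3, 47057898 to 47205467) had 4908 wild-type and 1404 knockout fragments, a ratio of 0.334 with an interval of 0.314 to 0.354. That level does not itself show the state of the protein. The genes chosen to mark a tubular carcinoma line, PAX8, PAX2, KRT8, KRT18, CDH2 and the mesenchymal filament gene VIM, were present in both libraries at 9.98 to 5234 CPM (fragments scaled to library size). The leukocyte and endothelial genes PTPRC, CD3E, PECAM1, CDH5 and VWF had 0 to 4 fragments per library. Of the fibroblast and pericyte genes, PDGFRB had 57 wild-type and 31 knockout fragments and COL1A2 had 14 and 0.

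Promoter sequences of 4 members are shown, because 3 of these genes were among the lowest described below and the other is a neighbour of one of them. GSTM4, DENND2D and NID1 had 16 fragments or fewer in the knockout library, and GSTM3 is a relative of GSTM4 from the same gene cluster that was higher there. Each sequence is the 250 bases before the first transcript start that RefSeq lists, 5′ to 3′ on the gene's strand, with coordinates on GRCh38.p14, another build than that of the tables. Capitals mark CG dinucleotides. The GSTM4 sequence (chr1:109655849-109656098, plus strand) holds 18 of them, the GSTM3 sequence (chr1:109741039-109741288, minus strand) 1, the DENND2D sequence (chr1:111200647-111200896, minus strand) 4 and the NID1 sequence (chr1:236065091-236065340, minus strand) 30.
GSTM4: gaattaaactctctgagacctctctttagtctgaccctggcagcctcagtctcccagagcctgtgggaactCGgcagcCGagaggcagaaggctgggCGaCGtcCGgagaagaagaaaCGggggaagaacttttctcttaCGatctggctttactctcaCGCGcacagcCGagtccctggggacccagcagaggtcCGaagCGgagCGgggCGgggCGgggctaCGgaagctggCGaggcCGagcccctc
GSTM3: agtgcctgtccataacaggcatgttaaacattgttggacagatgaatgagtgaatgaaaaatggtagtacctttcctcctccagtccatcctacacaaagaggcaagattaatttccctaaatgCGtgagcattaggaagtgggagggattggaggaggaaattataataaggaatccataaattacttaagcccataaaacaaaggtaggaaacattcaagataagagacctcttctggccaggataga
DENND2D: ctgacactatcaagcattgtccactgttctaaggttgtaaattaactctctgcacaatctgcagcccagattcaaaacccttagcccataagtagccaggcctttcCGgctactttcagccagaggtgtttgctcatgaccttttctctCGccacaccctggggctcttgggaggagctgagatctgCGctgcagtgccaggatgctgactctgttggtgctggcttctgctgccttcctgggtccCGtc
NID1: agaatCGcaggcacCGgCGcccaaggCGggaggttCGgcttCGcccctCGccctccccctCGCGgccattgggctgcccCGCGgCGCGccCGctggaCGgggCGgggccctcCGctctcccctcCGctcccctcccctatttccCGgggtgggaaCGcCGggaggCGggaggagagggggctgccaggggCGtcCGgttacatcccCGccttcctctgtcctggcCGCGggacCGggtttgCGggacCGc
Among 27305 RefSeq promoters of this length, 93.6% held at least 1 CG and the median was 11. The strand does not matter, since CG reads the same on both. Of the 3 genes that were near 0 in the knockout library, NID1 had more CG than 87.8% of all promoters, GSTM4 more than 63.5% and DENND2D more than 30.1%. Over the 1120 members with a promoter entry the median count was 20, with 18 in the window and 22 in both ends together.

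Genes of the window were lower in the knockout library as a group, and genes of both ends lay close to the level of the other chromosomes. The median log2 ratio of the window was -0.45, a ratio of 0.732, and 512 of its 650 genes (78.8%) had a ratio below 1. The end before the window had a median of -0.08 with 56.3% of genes below 1, and the end after it a median of 0.04 with 45.0% below 1. Over the 12295 genes of other chromosomes the median was -0.00037 and 6151 genes lay below 1. The median of both ends together was -0.05, and it was above 0, at 0.028 and 0.026, when the libraries were scaled by total count or by the upper quartile. Under those scalings the window had medians of -0.37 and -0.38, while its difference from both ends, -0.40, cannot move with a scaling, which adds the same amount to every gene.

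**Figure D1:**
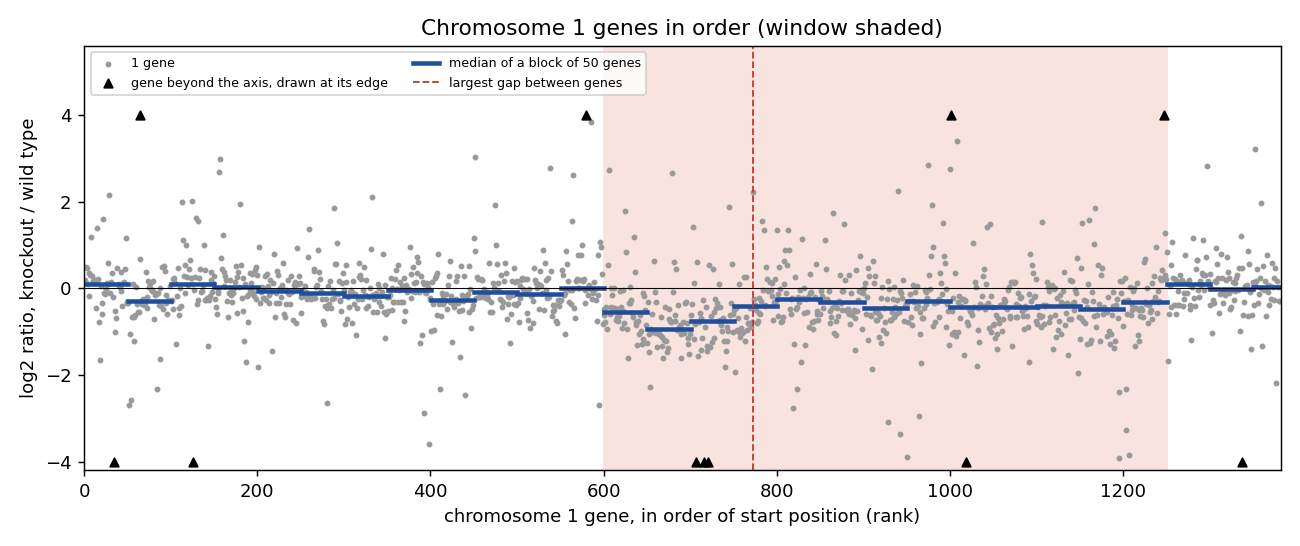
Log2 ratio of knockout over wild type (vertical axis) for each of the 1381 chromosome 1 genes in order of start position (horizontal axis), with the median of each block of 50 genes as a blue bar, the window shaded and the largest gap between genes dashed. The block medians in the window run from -0.93 to -0.25 and those of the ends from -0.28 to 0.11.

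The shift concerned the body of the distribution and not a few genes. In the window the lower quartile was -0.79 and the upper quartile -0.07, so that more than 3 in 4 genes lay below 0. In both ends together these quartiles were -0.32 and 0.23. The window's interquartile range of 0.72 was wider than that of the ends, 0.55, and near that of all genes, 0.69. Summed over genes, the window took 4.69% of all wild-type fragments and 3.39% of all knockout fragments, while the ends took 5.93% and 5.80%. The median level per transcript length was 6.25 RPKM in the wild-type and 4.64 RPKM in the knockout library for window genes. For genes of the ends it was 7.07 and 7.56 RPKM, in the authors' scaling.

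**Figure D2:**
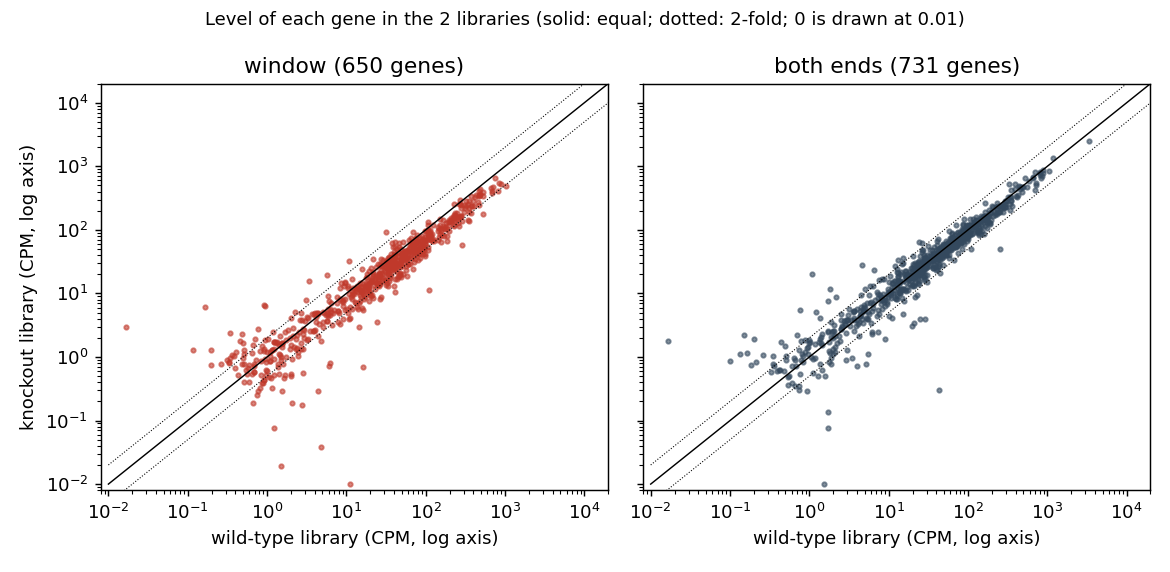
CPM in the knockout library (vertical, log axis) against CPM in the wild-type library (horizontal, log axis) for the 650 genes of the window and the 731 genes of both ends, 1 point per gene, with a solid line at equal levels and dotted lines at 2-fold. Of the 650 window genes 512 lie below the solid line, with the widest scatter on both sides of it at low levels, and the cloud of the ends lies along it.

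The window was not of one level. Its largest break in gene order was a gap of 21.9 Mb between the starts of FAM72B (120.8 Mb) and LOC375010 (142.7 Mb), around the centromere. The 172 window genes before this gap had a median log2 ratio of -0.76, a ratio of 0.592, and 148 of them (86.0%) had a ratio below 1. The 478 genes after the gap had a median of -0.37, a ratio of 0.773, with 364 (76.2%) below 1. The upper quartile before the gap, -0.38, was at the median of the genes after it. The split at the gap was chosen after seeing the data. FAM72B itself had 198 wild-type and 99 knockout fragments and LOC375010 had 203 and 816. FAM72B is one of several near-identical copies, so its count is uncertain.

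**Figure D3:**
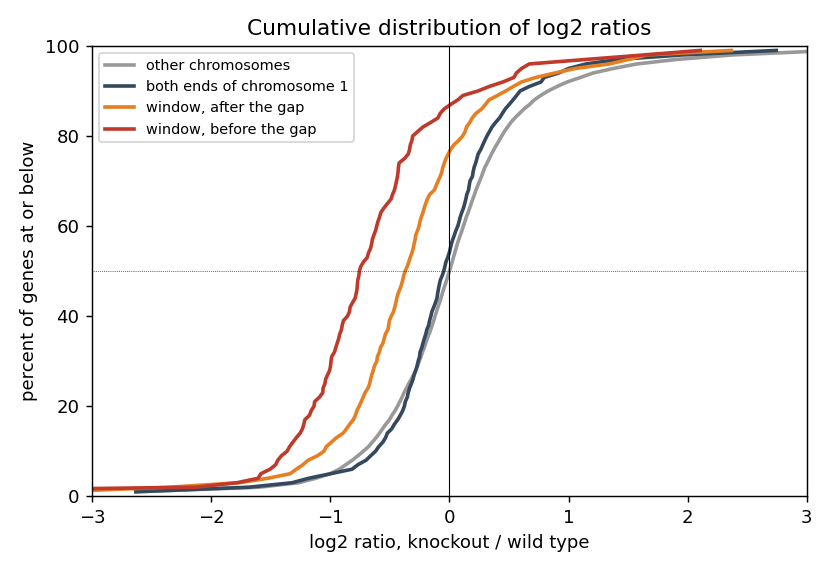
Percent of genes (vertical axis) with a log2 ratio at or below the value on the horizontal axis, for genes of other chromosomes, of both ends of chromosome 1 and of the window on either side of its largest gap. The curves cross 50% at -0.00037, -0.05, -0.37 (after the gap) and -0.76 (before the gap).

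Blocks of 50 consecutive genes, counted from the start of the chromosome, describe the same ratios. The limits of the window, 84.9 and 221.1 Mb, fall on block edges. As these ratios chose the window, the block medians give it no separate support. The 28 blocks of chromosome 1 included 12 with a median below -0.3, all of them among the 13 blocks of the window. Over all chromosomes 40 of 275 blocks had such a median. The block from 94.6 to 109.9 Mb (ARHGAP29 to PSMA5) had the lowest median of the 275 blocks, -0.93, and 46 of its 50 genes had a ratio below 1. Next to it the block from 84.9 to 94.4 Mb had a median of -0.55 and the block from 110.0 to 115.3 Mb a median of -0.75. Between 115.3 and 221.1 Mb the 10 block medians lay between -0.47 and -0.25. The highest of these belonged to the block from 146.7 to 151.2 Mb. In the end before the window, the blocks from 2.4 to 10.1 Mb and from 40.9 to 45.3 Mb had the lowest medians, -0.28 and -0.27.

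At single-gene resolution the lower limit was reached slightly earlier than the block boundary. Just outside the lower limit, LPHN2, an adhesion G-protein-coupled receptor, had 4558 wild-type and 4884 knockout fragments, a log2 ratio of 0.32. The next 2 genes in order were already lower. TTLL7, a tubulin polyglutamylase, had 898 and 434 fragments (-0.83), and PRKACB, a catalytic subunit of protein kinase A, had 3342 and 2064 (-0.47). Just inside, RPF1, a ribosome biogenesis factor, had 2447 and 1365 (-0.62), GNG5, a G-protein gamma subunit, 4817 and 2420 (-0.77), and CTBS, a lysosomal chitobiase, 1506 and 957 (-0.43). At the upper limit the last genes inside were not lower. C1orf115 had 20 wild-type and 42 knockout fragments (1.27), MARC2, a molybdenum enzyme, 202 and 215 (0.31) and HLX, a homeobox factor, 461 and 462 (0.23). Just outside, DUSP10, a phosphatase of MAP kinases, had 1652 and 2524 (0.83), HHIPL2 915 and 246 (-1.67), and TAF1A, a subunit of the RNA polymerase I factor SL1, 992 and 563 (-0.59).

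A piecewise-constant fit by least absolute deviation described without blocks where the level of the same ratios changed. As these ratios chose the window, the steps of the fit give its limits no separate support. With 2 steps the level changed at TTLL7 (84.3 Mb) and at ESRRG (216.7 Mb), and the 637 genes between had a median of -0.46 against -0.07 before and 0.06 after. With 4 steps the level was -0.07 up to LPHN2, -0.46 over 38 genes from TTLL7 to KIAA1107 (84.3 to 92.6 Mb), and -0.84 over 134 genes from GLMN to ZNF697 (92.7 to 120.2 Mb). It was then -0.38 over 472 genes from NOTCH2 to EPRS (120.5 to 220.1 Mb) and 0.08 over the 139 genes from BPNT1 onwards. Of the 134 genes in the lowest of these levels, 119 had a ratio below 1. A least squares fit with 2 steps put its steps elsewhere, at GLMN (92.7 Mb) and LOC375010 (142.7 Mb), which bracket that lowest level. Its last level then holds the rest of the window together with the end after it.

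**Figure D4:**
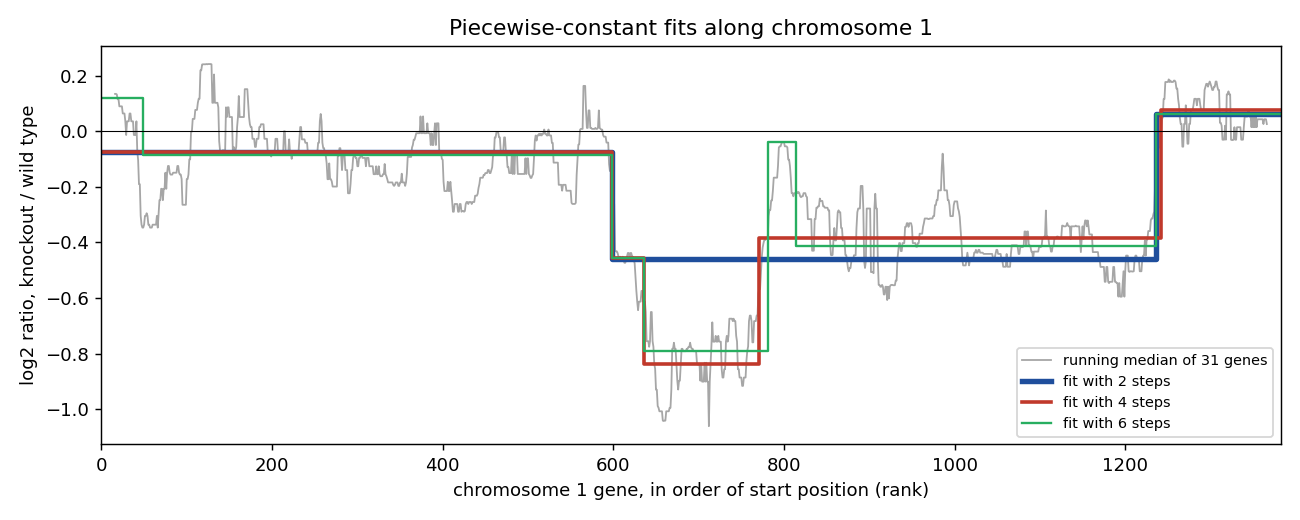
Running median of 31 genes (grey) and piecewise-constant fits with 2, 4 and 6 steps of the log2 ratio (vertical axis) over the chromosome 1 genes in order of start position (horizontal axis). The fits share a fall at TTLL7, those with 4 and 6 steps have their lowest level, -0.84 and -0.79, in the window before or across the gap, and all 3 return above 0 between 216.7 and 220.2 Mb.

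With 6 steps, a number chosen after seeing the data, 33 genes from NBPF10 to BOLA1 (145.3 to 149.9 Mb) stood out within the window at a median of -0.04. Of these genes, 15 had a ratio above 1. TXNIP, a redox regulator that binds thioredoxin, had 1921 wild-type and 4866 knockout fragments, a ratio of 2.95. PRKAB2, a subunit of AMP-activated kinase, had 2835 and 2808 fragments. PDZK1, a scaffold protein of the brush border, was lower, with 2043 and 1057 fragments, a ratio of 0.603. The stretch holds 4 NBPF genes and 3 histone genes with near-identical copies, whose counts are uncertain. The other 26 genes had a median of -0.03. They still include the related genes GPR89A and GPR89B and the pseudogene PDIA3P, so this median is not free of uncertain counts.

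Single genes were counted as lower or higher when the whole interval lay beyond 2-fold. On chromosome 1, 95 of 1381 genes were lower (3.69% of all 13676 genes were) and 41 were higher (5.05% of all genes were). The window held 71 of the lower genes, 10.9% of its members, and the ends held 24, 3.28% of theirs. Before the gap 36 of 172 window genes were lower (20.9%) and 3 higher, and after it 35 of 478 were lower (7.32%) and 13 higher. Since the ratios chose the window, these shares describe it and support nothing further. At the milder rule of an interval beyond 1.5-fold, 198 window genes were lower and 33 higher, where 10.5% and 9.58% of all genes were.

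The lowest genes of the window, ranked by the bound of the interval nearest to 1 among members whose higher library held at least 200 reads, were far below the level of their neighbours. GSTM4 (chromosome 1, 110198698 to 110208123), a mu-class glutathione transferase whose promoter is shown above, was counted in 669 wild-type fragments and in 0 knockout fragments. Taking the knockout level at a floor of 3 fragments, it was 191-fold lower, and its exact interval starts at 155-fold. GSTM3 (110276554 to 110283660), from the same cluster, had 969 and 1267 fragments, a ratio of 1.53 with an interval of 1.40 to 1.66. GSTM3 and GSTM4 thus lie on opposite sides of the level of their block, and as the genes of the cluster resemble each other, reads may be shared between them. DENND2D (111729801 to 111743281), a regulator of Rab GTPases, had 291 wild-type and 2 knockout fragments, a ratio of 0.00802 (interval 0.000966 to 0.0292). SLC16A4 (110905473 to 110933704), a monocarboxylate transporter family member, had 982 and 36 fragments, a ratio of 0.0428. These 3 lower genes all lie in the block from 110.0 to 115.3 Mb.

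After the gap the lowest genes lay from 150.12 to 156.64 Mb and from 207.1 to 209.85 Mb. NES, which encodes the intermediate filament nestin, had 268 wild-type and 15 knockout fragments, a ratio of 0.0653. PIGR, the receptor that carries polymeric immunoglobulin across epithelia, had 168 and 9 fragments, a ratio of 0.0625. G0S2, an inhibitor of the triglyceride lipase ATGL, had 6768 and 598 fragments, a ratio of 0.103. SYT11, a synaptotagmin, had 370 and 37 (0.117), and PLEKHO1 had 1468 and 185 (0.147). All 5 ratios lie well under 0.773, the ratio at the median of the genes after the gap.

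Other window genes were higher in the knockout library, unlike most genes of the window. MARK1, a kinase of microtubule-associated proteins, had 1 fragment in the wild-type and 157 in the knockout library, a ratio of 183 with an interval of 32.4 to 7278. It lies at 220.7 Mb, past both upper steps of the fits. C1orf226 had 10 and 316 fragments, a ratio of 36.9 (interval 19.8 to 77.6), and its neighbour NOS1AP, an adaptor of neuronal nitric oxide synthase, had 21 and 124, a ratio of 6.89. SLAMF7, a receptor best known from lymphocytes, had 55 and 343 fragments, a ratio of 7.27. MCOLN3, an endolysosomal cation channel, had 57 and 330 (6.75), PAQR6 had 29 and 120 (4.83), and GBP4, an interferon-induced GTPase, had 341 and 1015 (3.47). All but GBP4 and LOC375010 of the 8 highest genes of the window were below 1 CPM in the wild-type library, so that their ratios start from low levels.

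The ends also held single genes far from the level of their neighbours. NID1 (236139132 to 236228481), a basement membrane protein in the end after the window, had 2612 wild-type and 16 knockout fragments, a ratio of 0.00714 with an interval of 0.00408 to 0.0116. In the same end, NLRP3, an inflammasome sensor, had 541 and 101 fragments (0.218) and KMO, a kynurenine hydroxylase, 672 and 217 (0.377), while RHOU, a small GTPase, had 46 and 284 (7.20) and LYST, a regulator of lysosome traffic, 931 and 1845 fragments (2.31). In the end before the window, MFSD2A, a transporter of lysophospholipids, had 1764 and 204 fragments (0.135), PTGFR, the prostaglandin F receptor, 1212 and 159 (0.153), and COL9A2, a cartilage collagen, 105 and 7 (0.0778). VWA1, a matrix protein, had 103 and 4 fragments (0.0453). AJAP1, a junction protein, had 65 and 1052 (18.9), WLS, which carries Wnt ligands to the cell surface, 277 and 1452 (6.11), and PADI1, a peptidylarginine deiminase, 112 and 617 (6.43). PDPN, chosen here after its values were seen because it was the other member at 0 in a library, had 93 fragments in the wild-type and 0 in the knockout library. With the same floor it was 26.6-fold lower (interval from 21.2-fold).

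The ratios that chose the window were also split by other properties of the genes, as a description. Genomic span made little difference: the window medians in the classes of shortest, middle and longest genes, cut at equal numbers over chromosome 1, were -0.44, -0.48 and -0.45, and those of the ends -0.05, -0.05 and -0.04. The count of CG in the promoter gave window medians of -0.43, -0.48 and -0.46 from the lowest to the highest class, and medians of 0.018, -0.05 and -0.11 in the ends. By abundance the window medians were -0.24, -0.46 and -0.55 from the lowest to the highest class, and those of the ends 0.10, -0.03 and -0.10. Of these abundance classes the lowest had the widest spread, with an interquartile range of 1.17 in the window and 1.002 in the ends. Protein-coding genes of the window (595 genes) had a median of -0.45 and its 22 non-coding RNAs a median of -0.61, while its 13 pseudogenes had a median of 0.04. In the ends these medians were -0.07 (665 genes), 0.0065 (26 genes) and -0.12 (10 genes). The window held 4.78 members per Mb with its gap included, the end before it 7.10 and the end after it 4.79. Taken apart, the window held 4.79 members per Mb before the gap and 6.10 after it. Of all members, 259 overlapped another member, and as the use of strand in counting is not given, reads of overlapping genes cannot be told apart.

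The members were then read by role, in 17 lists of chromosome 1 genes that held 148 genes of the window and 112 of the ends. A list member was counted as lower or higher beyond 1.5-fold, the rule passed by 10.5% and 9.58% of all genes. The medians below stand beside a median of -0.02 over all 13676 genes, and the differences between lists, or between window and ends within a list, were not tested. The ratios that chose the window also give these medians, so a lower window median in a list adds no support.

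Genes of mitosis and DNA replication had ratios below 1 in all 12 members of the window and all 13 of the ends, with lower values in the window. Of 12 members in the window, 10 were lower and 0 higher, with a median log2 ratio of -0.89 and a range of -1.29 to -0.57. Of 13 in the ends, 3 were lower and 0 higher, with a median of -0.43. In the window, NUF2, a kinetochore protein, had 3839 wild-type and 1528 knockout fragments (ratio 0.464), PSRC1, a spindle protein, 2881 and 1011 (0.409), TTF2, a transcription termination factor, 4830 and 1770 (0.427), and UBE2T, a ubiquitin-conjugating enzyme of the Fanconi pathway, 2860 and 1086 (0.443). CENPF, a kinetochore protein, had 27505 and 14358 (0.609). In the ends, CDC20, an activator of the anaphase-promoting complex, had 17661 and 11716 fragments (0.774), CDCA8, a subunit of the chromosomal passenger complex, 8935 and 4558 (0.595), and CLSPN, a checkpoint mediator, 6689 and 2598 (0.453).

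Housekeeping complexes with subunits in both parts offer a side-by-side view. In the list of proteasome and ribosome genes, the 5 window members had a median of -0.58 and the 4 of the ends a median of -0.12. RPL5, a protein of the large ribosomal subunit, had 42110 wild-type and 21386 knockout fragments, a ratio of 0.592. RPL11, another protein of that subunit, in the end before the window, had 40082 and 35094 fragments (1.02). RPS27, in the window after the gap, had 22468 and 17805 (0.924). At 746.6 RPKM in the wild-type and 729 RPKM in the knockout library, RPS27 had the highest level per length of the window, and RPL11 that of the ends, at 737.3 and 795.5 RPKM. PSMA5, a proteasome subunit encoded before the gap, had 10281 and 4223 (0.479), PSMB4, after it, 14305 and 8981 (0.732).

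Mitochondrial and citrate cycle genes had 1 lower gene of 7 in the window (median -0.28) and 1 of 10 in the ends (median -0.04), with 0 higher in each. The lower gene of the window was ATP5F1, a subunit of ATP synthase, which had 10527 and 5805 fragments, a ratio of 0.643. In the ends UQCRH, a subunit of complex III, had 9821 and 8438 (1.002), NDUFS5, of complex I, 7353 and 5970 (0.947), and COX20, an assembly factor of complex IV, was the lower gene with 374 and 128 (0.399).

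RNA splicing and binding genes had 2 lower and 0 higher of 11 in the window, with a median of -0.47, and 0 lower and 0 higher of 14 in the ends, with a median of -0.13. In the window SF3B4, a spliceosome subunit, had 6879 and 4251 fragments (0.721), DHX9, a helicase, 28267 and 20988 (0.866), and DDX20, a helicase of the SMN complex, 1950 and 752 (0.450). In the ends HNRNPU had 53715 and 44797 (0.973), SFPQ 24858 and 17267 (0.810) and HNRNPR 21374 and 15563 (0.849), all RNA-binding proteins of the nucleus. Chromatin regulators had 1 lower and 0 higher gene of 13 in the window (median -0.24) and 1 lower and 1 higher of 12 in the ends (median -0.03). The lower gene of the window was PRMT6, an arginine methyltransferase, with 2769 and 1414 fragments (0.596). CHD1L, a remodelling ATPase, had 4367 and 2421 fragments (0.647) and SMYD2, a lysine methyltransferase, 3666 and 2208 (0.702). In the ends KDM1A, a lysine demethylase, had 8211 and 6613 (0.939) and HDAC1, a histone deacetylase, 11850 and 7370 (0.725), while HMGN2, a nucleosome-binding protein, was lower with 42334 and 22043 fragments (0.607) and SMYD3, a lysine methyltransferase, higher with 777 and 1136 fragments (1.71).

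**Figure D5:**
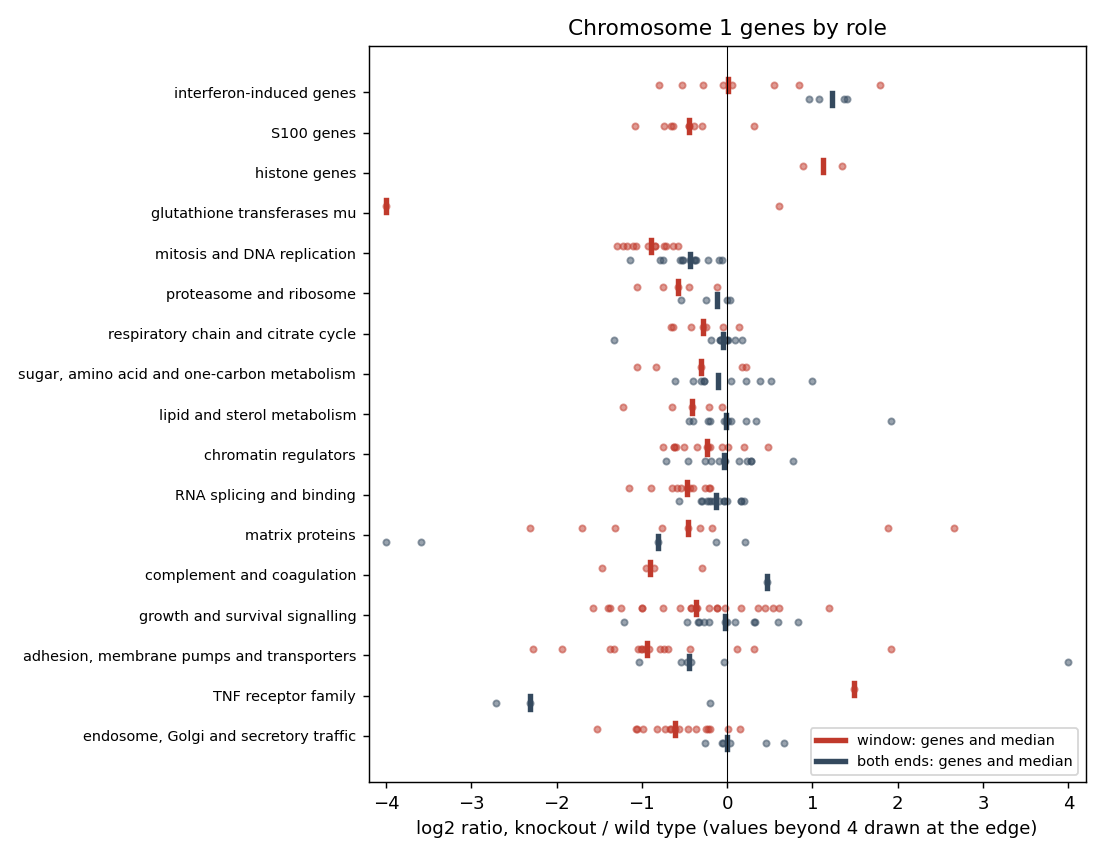
Log2 ratio of knockout over wild type (horizontal axis) for the members of 17 lists of chromosome 1 genes (vertical axis), with points for genes and bars for medians, in red for the window and in dark blue for both ends. The window median lies to the left of the median of the ends in 12 of the 14 lists with members in both, the exceptions being the matrix proteins and the TNF receptor family. The same ratios chose the window, so this tally is a description only. The complement and coagulation list has 1 gene in the ends, and the TNF receptor family 1 in the window.

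The S100 genes, small calcium-binding proteins encoded side by side in the window, had 3 lower and 0 higher of 9 members and a median of -0.45, close to that of the window. S100A11 had 28458 wild-type and 17925 knockout fragments (0.735), S100A6 31683 and 20694 (0.762), and S100A10, a partner of annexin, 22683 and 12371 (0.636). Of the interferon-induced genes of the ends, 4 of 4 were higher, with a median of 1.22, and among the 8 of the window there was 1 higher and 1 lower gene (median 0.01). In the end before the window ISG15, a ubiquitin-like protein, had 1451 and 3294 fragments (2.65), IFI6 790 and 1755 (2.59) and IFI44 769 and 1280 (1.94). In the window the guanylate-binding proteins were mixed. GBP1 had 9227 and 7651 fragments (0.967) and GBP3 8870 and 5282 (0.695), beside GBP4, the higher gene, with its ratio of 3.47. The lower gene was GBP2, with 938 and 461 fragments (0.573). ADAR, an RNA-editing enzyme, had 26457 and 18713 (0.825). In 2 small lists confined to the window, the histone genes had 1 higher of 2 members, HIST2H2BE with 188 and 411 fragments (2.55), and HIST2H2BF had 62 and 99 fragments (1.86), both uncertain because of near-identical copies, while the mu-class glutathione transferases were GSTM3 and GSTM4 above. The guanylate-binding genes resemble each other, and reads may be shared between them.

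Adhesion and transport genes of the window had 12 lower and 1 higher of 16 members, with a median of -0.94, and those of the ends 1 lower and 1 higher of 6, with a median of -0.44. VCAM1, an adhesion molecule for leukocytes, had 21420 wild-type and 7067 knockout fragments (0.385), and SLC44A3, of the choline transporter-like family, 883 and 156 (0.206). TSPAN2, a tetraspanin, had 2473 and 555 (0.262), SLC35A3, a Golgi nucleotide sugar transporter, 1306 and 445 (0.397), and ATP1B1, a subunit of the sodium pump, 11812 and 7482 (0.739). The higher gene of the window was PVRL4, an adhesion molecule of the nectin family, with 28 and 92 fragments (3.83).

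Growth and survival signalling had 6 lower and 1 higher of 22 members in the window, with a median of -0.36, and 1 lower and 1 higher of 13 in the ends, with a median of -0.03. CSF1, the macrophage growth factor, had 31808 wild-type and 9191 knockout fragments (0.337), RAP1A, a small GTPase, 3420 and 1234 (0.421), IKBKE, a kinase of innate immune signalling, 2633 and 873 (0.387), and RHOC, a small GTPase, 24635 and 12496 (0.592). MCL1, which protects from apoptosis, had 19801 and 14598 (0.860). In the ends JAK1, a cytokine receptor kinase, had 31724 and 33689 (1.24), CDC42, a small GTPase, 27309 and 22989 (0.982), and EPHA2, an ephrin receptor, 21083 and 14933 (0.826).

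Matrix genes moved in both directions, with 4 lower and 2 higher of 9 members in the window (median -0.46) and 2 lower and 0 higher of 5 in the ends (median -0.82). The laminin subunits of the window differed from each other, with LAMC1 at 45482 and 34542 fragments (0.886) and LAMB3 at 17367 and 2991 (0.201). ECM1, a secreted matrix protein, had 1597 and 421 (0.307), CYR61, a matricellular protein, 23889 and 14851 (0.725), and COL11A1, a fibrillar collagen, 12 and 67 (6.51). In the ends AGRN, a basement membrane proteoglycan, had 71196 and 70516 (1.16) and HSPG2, which encodes perlecan, 48691 and 38233 (0.916). Complement and coagulation genes of the window were lower in 3 of 4 members (median -0.91), with F3, tissue factor, at 11170 and 3472 fragments (0.363) and CD46, a complement cofactor, at 18354 and 12805 (0.814).

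Traffic and cytoskeleton genes had 9 lower and 0 higher of 17 in the window, with a median of -0.61, and 0 lower and 0 higher of 6 in the ends, with a median of -0.0066. LMNA, which encodes lamins A and C, had 32369 and 17472 fragments (0.630), ARPC5, of the actin-nucleating complex, 18227 and 9909 (0.634), CAPZA1, an actin capping subunit, 20947 and 13086 (0.729), and SORT1, a sorting receptor, 972 and 290 (0.348). CAPZB, the partner subunit of CAPZA1 encoded in the end before the window, had 20765 and 17128 (0.962), and ARF1, a GTPase of Golgi traffic in the end after it, 29809 and 24785 (0.970). The capping protein pair thus had its 2 subunits on either side of the limit.

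Sugar, amino acid and one-carbon genes had 2 lower and 0 higher of 5 in the window (median -0.31) and 0 lower and 1 higher of 10 in the ends (median -0.11). AMPD2, an AMP deaminase, had 11334 and 5454 fragments (0.561), UAP1, of hexosamine synthesis, 8687 and 3579 (0.481), and ALDH9A1, an aldehyde dehydrogenase, 3546 and 2456 (0.808). In the end before the window ENO1, a glycolytic enolase, had 201476 and 130573 (0.756), SLC2A1, the main glucose transporter of many cells, 62845 and 43428 (0.806), and PGD, of the pentose phosphate pathway, 12183 and 12166 (1.16). Lipid and sterol genes had 2 lower and 0 higher of 5 in the window (median -0.41) and 0 lower and 1 higher of 11 in the ends (median -0.0083). LPGAT1, a lysophospholipid acyltransferase, had 11341 and 4157 (0.428), FDPS, of isoprenoid synthesis, 9603 and 5280 (0.641), and SOAT1, which esterifies cholesterol, 12590 and 8124 (0.753). TNF and TNF receptor family genes lay mostly in the end before the window, where 2 of 3 were lower, TNFRSF9, an activating receptor of T cells, with 15319 and 2639 fragments (0.201) and TNFRSF14 with 315 and 41 (0.152). The only member in the window, TNFSF4, a ligand of the family, was higher, with 21 and 51 fragments (2.83).

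Other chromosomes held stretches of the same kind, given here for scale. By median over all its genes chromosome 1 ranked 3 from the lowest of 24 chromosomes at -0.22, after chromosome 7 at -0.54 and chromosome 12 at -0.51. Runs of at least 3 consecutive blocks below -0.3 were found on these 3 chromosomes. On chromosome 1 they covered 84.9 to 146.7 Mb (200 genes, median -0.65) and 151.3 to 221.1 Mb (400 genes, median -0.39), parted by the block of 146.7 to 151.2 Mb. On chromosome 7 such a run covered 44.8 to 158.6 Mb (median -0.65), and on chromosome 12 they covered 0.1 to 62.7 Mb (-0.59) and 76.7 to 127.2 Mb (-0.46). Shorter runs, left out by that rule, lay on other chromosomes too. On chromosome 10 the blocks from 0.2 to 13.5 Mb and from 13.6 to 28.3 Mb had medians of -0.63 and -0.48. Single blocks below -0.3 lay on chromosome X (150.2 to 154.3 Mb, -0.46) and chromosome 11 (47.7 to 61.6 Mb, -0.304). The difference between these stretches was not tested.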

How the data were processed

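RNA of 786-O cells and of a SETD2 knockout of that line was sequenced, 1 library each. The authors deposited a count and an RPKM value (reads scaled to transcript length and sequencing depth) per gene for each library. Reads were aligned to hg19 with TopHat2 2.0.6 and Bowtie and counted with HTSeq, per the submitters' processing notes, which give no role to each tool; the setting for strand is not given in the sources used here. Every one of 23398 deposited counts was even in both tables, so they were halved to fragments, a step added after seeing the data. The 23 second entries, on chromosome Y, of genes shared by X and Y were left out. The RPKM values were used for levels only.

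Libraries were scaled by TMM (edgeR 4.0.16 in R 4.3.3) over 16894 genes with at least 10 reads. Log2 ratios had 0.5 fragments added, and genes with under 100 reads over both libraries were left out. The planned count test needs replicates and was not run. Exact (Clopper-Pearson) 95% intervals of each ratio cover counting error only, since reads without molecular identifiers are not independent molecules. A count of 0 allows up to 3 fragments, which is 0.0494 CPM (wild type) or 0.0577 CPM (knockout). Levels along the chromosome were fitted by least absolute deviation, with at least 25 genes per level. The fits and intervals were tested on simulated data.

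Genes named are the 8 lowest and 8 highest of the window and 4 of each kind in each end, ranked by the bound of the interval nearest to 1 among members whose higher library held at least 200 reads, the 3 genes on either side of each limit, the genes on either side of the gap, those most abundant per length, and, of each list, up to 3 members in the window and 3 in the ends with the highest wild-type RPKM and those beyond 2-fold. TXNIP, PRKAB2, PDZK1, PRMT6, SMYD3 and GBP2 were chosen after their values were seen, and genes that bound a block or a fitted level only mark a position. The members, the window and the 17 lists were chosen with earlier results of these data known. Alternatives were other scalings, count minimums, added fragments, fold and confidence limits and fits. Biotypes were matched for 96.4% of members and promoters for 81.1%. Names and promoters came from RefSeq tables on GRCh38.p14.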

Additional observations from a re-analysis of the deposited data

How the results depend on the processing

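The lower level of the window kept its direction under every alternative run. As the ratios of these same libraries chose the window, that direction was nearly fixed in advance and adds no support. Of 113 alternative values of 11 summary results, 96 kept their side and size. Some of these 96 could not change or hardly could, so the tally does not measure how firm the results are. A scaling moves neither the difference between window and ends nor the steps of a fit. Undivided counts leave the ratios, and so the medians and steps, almost as they were. Each median counted as kept lay within an interval of its main value (-0.504 to -0.410 for the window). That interval covers the spread among genes only. Scaled by total count, the median log2 ratio was -0.37 in the window, -0.00023 in the end before it, 0.028 in both ends together and -0.295 in the window after the gap. Scaled by the upper quartile these were -0.376, -0.0029, 0.026 and -0.298, so that the sign of both ends together reversed under both. Summed fragments gave log2 ratios of -0.55, -0.13, -0.11 and -0.46 for the same 4 groups. These scalings moved the median of all genes by 0.076 and 0.074. With at least 500 reads, 22 chromosome 1 genes were higher beyond 2-fold instead of 41, as fewer genes were counted. Beyond 1.5-fold, 87 were higher and 250 lower. By least squares the 2 steps lay at 92.7 and 142.7 Mb, and the cause was not tested. Of 745 alternative values of 149 named genes, 0 reversed, 16 dropped out of the call and 2 entered it. The upper step lay between 215.8 and 220.23 Mb under the other count minimums and numbers of steps, and the lower step stayed at TTLL7. No paired analysis was possible because each line has 1 library. Low counts limit the least abundant genes, whose ratios spread most. The split at the gap, the fit with 6 steps and the undivided counts were alternatives chosen after seeing the data.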
